A study of Mus musculus with 8 samples.

Results

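The matrix metalloproteinase genes Mmp2, Mmp3, Mmp7, Mmp8, Mmp9, Mmp10, Mmp12, Mmp13, Mmp14 and Mmp20 were examined in 8 maps of histone modifications from mouse Lewis lung carcinoma. These 10 genes were taken by name from the 22367 protein-coding genes of the gene annotation GENCODE vM1 on mm9, and all 10 were found. The study compared subcutaneous tumors of LLC-NR cells, which respond to the VEGF inhibitor VEGF-Trap, with tumors of LLC-R cells, which had been selected for resistance by passage in VEGF-Trap-treated mice. Both lines were grown as isografts in female C57BL/6J mice, so tumor cells and host cells share the same strain background and both can contribute chromatin. Chromatin was cut with micrococcal nuclease and immunoprecipitated for H3K4me3, H3K9ac, H3K27me3 or H3K36me3, with 1 library for each line and mark. The LLC-R line was obtained by selection in mice, and the labels give its tissue as lung although the grafts grew under the skin. Whether a library holds 1 tumor or a pool is not given in the sources used here. In tissue, fewer cells that carry a mark and less of the mark per cell cannot be told apart.

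Matrix metalloproteinases are zinc-dependent enzymes that cut collagen, gelatin, elastin and other parts of the extracellular matrix, and they are made as inactive precursors. In tumors they are known for opening the basement membrane and for releasing growth factors bound to the matrix, among them VEGF. Many of their genes carry AP-1 and TATA elements near the start site and are induced by growth factors and inflammatory signals. H3K4me3 and H3K9ac mark active promoters, H3K27me3 is laid down by Polycomb at silent genes, and H3K36me3 lies over transcribed gene bodies.

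The 10 genes fall into a group of neighbours and 3 dispersed genes. Mmp13, Mmp12, Mmp3, Mmp10, Mmp8, Mmp20 and Mmp7 lie in this order on chromosome 9, all 7 on the + strand, and Mmp1b, Mmp1a and Mmp27 lie among them. Mmp9 lies on chromosome 2, Mmp2 on chromosome 8 and Mmp14 on chromosome 14. By CpG content, Mmp2 and Mmp14 had CpG-rich promoters and the other 8 genes had CpG-poor promoters, a class that took 28.9% of all promoters. The promoters below differ in these features and are shown from 250 bp upstream to 30 bp downstream of the TSS on NCBIM37, the assembly called mm9, with motif matches in capitals.
Mmp9 (chr2:164773469-164773748, + strand): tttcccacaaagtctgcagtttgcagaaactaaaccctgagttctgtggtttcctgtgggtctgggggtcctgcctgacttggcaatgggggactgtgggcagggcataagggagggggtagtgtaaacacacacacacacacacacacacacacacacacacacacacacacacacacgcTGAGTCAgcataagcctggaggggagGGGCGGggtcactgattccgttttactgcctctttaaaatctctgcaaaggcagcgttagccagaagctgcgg
Mmp13 (chr9:7272264-7272543, + strand): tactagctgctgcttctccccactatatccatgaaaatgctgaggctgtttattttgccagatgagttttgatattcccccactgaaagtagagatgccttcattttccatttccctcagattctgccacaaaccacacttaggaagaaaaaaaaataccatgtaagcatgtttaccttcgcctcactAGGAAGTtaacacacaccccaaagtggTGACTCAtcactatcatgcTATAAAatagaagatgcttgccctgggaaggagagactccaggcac
Mmp3 (chr9:7445572-7445851, + strand): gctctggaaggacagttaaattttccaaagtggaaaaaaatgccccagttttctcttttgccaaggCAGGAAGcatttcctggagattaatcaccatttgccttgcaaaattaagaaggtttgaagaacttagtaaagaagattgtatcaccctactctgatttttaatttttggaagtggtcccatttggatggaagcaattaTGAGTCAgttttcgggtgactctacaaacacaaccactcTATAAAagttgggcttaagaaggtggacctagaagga
Mmp2 (chr8:95350977-95351256, + strand): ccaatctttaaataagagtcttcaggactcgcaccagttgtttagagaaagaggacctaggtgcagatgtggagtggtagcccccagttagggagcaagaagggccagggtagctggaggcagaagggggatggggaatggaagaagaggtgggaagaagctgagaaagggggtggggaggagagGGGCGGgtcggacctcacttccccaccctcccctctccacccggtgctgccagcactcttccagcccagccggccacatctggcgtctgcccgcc
Mmp14 (chr14:55050191-55050470, + strand): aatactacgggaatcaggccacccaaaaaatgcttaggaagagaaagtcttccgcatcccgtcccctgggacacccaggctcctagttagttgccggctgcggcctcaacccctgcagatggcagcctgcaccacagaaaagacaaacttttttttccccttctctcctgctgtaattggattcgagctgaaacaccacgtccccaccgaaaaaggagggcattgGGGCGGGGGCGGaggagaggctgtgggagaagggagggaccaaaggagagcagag

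The motifs searched on both strands, from 250 bp upstream to 50 bp downstream of the TSS, were TGANTCA for AP-1, CAGGAAG or AGGAAGT for ETS factors, TATAAA for the TATA box, GGGANTTCC for NF-kappaB and GGGCGG for the GC box. TGANTCA was present in Mmp3, Mmp7, Mmp10, Mmp12, Mmp13 and Mmp20, 6 of the 10 genes, against 6.88% of all promoters. TATAAA was present in all 7 genes of chromosome 9 and in none of the other 3, against 13.4% of all promoters. In Mmp8 the match lay on the - strand over the TSS, from -3 to 2 bp, and in Mmp20 it began 58 bp upstream. Shares among CpG-poor promoters alone were not counted. In Mmp13 the AP-1 match began 35 bp and the TATA match 16 bp upstream of the TSS, as the capitals in its sequence show. In Mmp3 these matches began 46 bp and 7 bp upstream. GGGCGG was present in Mmp2, Mmp14 and Mmp9 only, against 43.7% of all promoters, and Mmp14 held 2 abutting matches. The ETS letters were present in 5 genes against 17.5% of promoters, and the NF-kappaB letters in 0 against 1.87%. These are matches of letters and say nothing of whether a factor was bound.

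Mmp9, which encodes a gelatinase, needs a remark on its start site. GENCODE vM1 lists 4 transcripts for Mmp9, each with its own TSS, and the rule used for all genes (the start of the largest number of transcripts, with ties settled to the upstream one) chose a site 7439 bp upstream of the TSS of its first gene model. The printed Mmp9 sequence is from the first gene model, where an AP-1 match began 69 bp and a GC box match 43 bp upstream. Values for Mmp9 are therefore given at both start sites. For Mmp12 and Mmp7 the start sites differed by 32 bp and 4 bp, and for the other 7 genes there was no difference.

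The deposited maps list positions of peaks of a fixed width, that of DNA on a nucleosome, without heights. They held 5660458 to 9101721 peaks, which covered 32.5% to 52.3% of the genome, so most promoters held several peaks of every mark. The level of a promoter is here the number of peaks with the midpoint in a stretch of 1.5 kb that begins 1 kb before the TSS, and where a pair of numbers is given LLC-NR comes first and LLC-R second. At most 11 such midpoints can fall in a promoter, the highest number in any promoter and library was 9, and the number responds less than peak height would. No input library was used here. Promoters of marker genes had overlapping numbers across cell types, and H3K4me3 peaks ranged from 2 to 6 per promoter for lung epithelium, 2 to 7 for leukocytes and 3 to 7 for constitutive genes in LLC-NR, and no marker of the 6 lists lacked H3K4me3 peaks in either line. The leukocyte markers, of which 9 of 10 were found, summed to 45 and 33 H3K4me3 peaks. This was the largest fall of the 6 lists, and neutrophil markers summed to 39 and 38. The sums were 52 and 46 for fibroblasts and 32 and 29 for endothelium. Lung epithelium had 47 and 49, and constitutive genes 47 and 47. The part of host cells in the values of the Mmp genes was not tested.

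Averaged over the 10 genes, the Mmp promoters held about as many H3K4me3 peaks as other promoters and somewhat more peaks of the other marks. For H3K4me3 they held 4.9 ± 0.994 peaks (SD over n = 10 genes) in LLC-NR, where all promoters held 4.91, and 4.4 ± 1.17 in LLC-R, where all held 4.6. For H3K9ac they held 5.7 ± 1.16 peaks against 5.51 in LLC-NR and 6 ± 1.05 against 4.96 in LLC-R. For H3K27me3 they held 5.4 ± 1.07 against 4.55 in LLC-NR and 6.3 ± 0.483 against 5.45 in LLC-R. For H3K36me3 they held 4.5 ± 1.72 against 3.20 in LLC-NR and 6.1 ± 0.568 against 4.96 in LLC-R. Written as ratios to all promoters, these means ran from 0.956 to 1.41. The H3K36me3 ratio of LLC-NR, 1.41, was the single one of the 8 whose 95% Poisson interval (1.03 to 1.88) lay off 1. Intervals here and below take numbers of peaks as Poisson counts, and they say nothing of the spread between tumors. The numbers are capped and varied less than Poisson counts would, for example with an SD of 0.483 around 6.3 for H3K27me3 in LLC-R. Whether an interval includes 1 or 0 therefore decides nothing. The plot of promoter peaks by gene and library shows how the genes lie around these means.

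**Figure D1:**
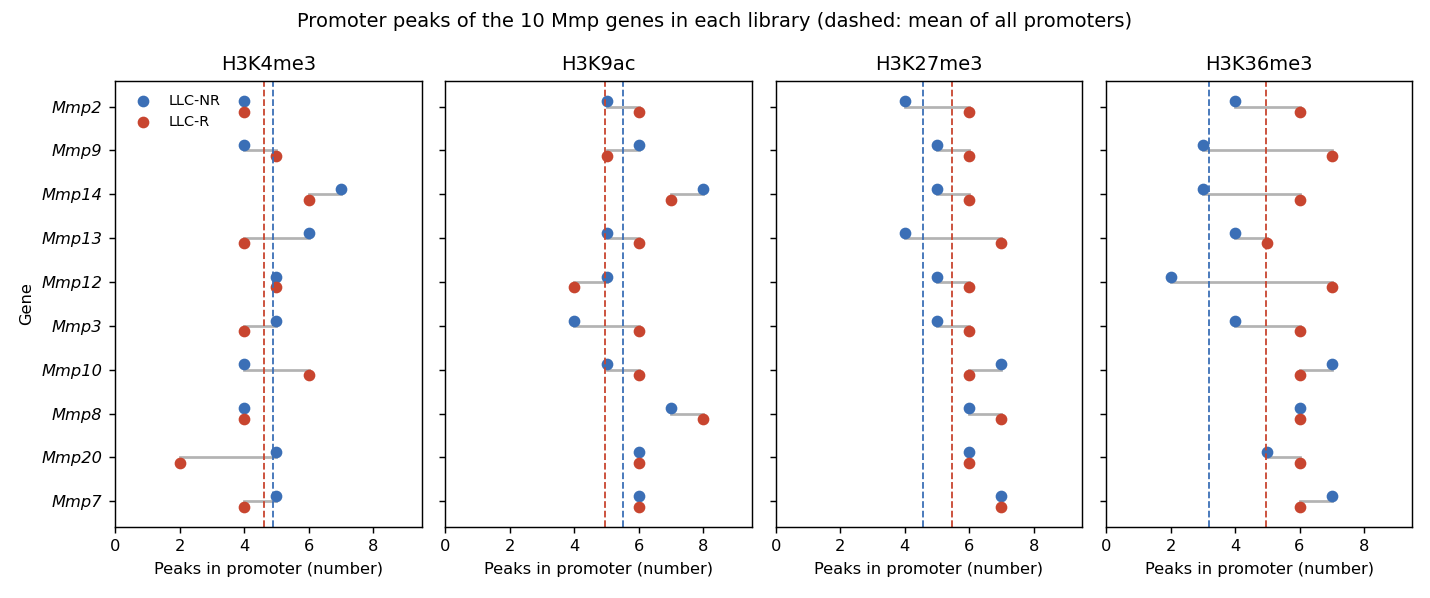
Number of peaks in the promoter (a stretch of 1.5 kb over the TSS) of each of the 10 Mmp genes, 1 panel per mark, with LLC-NR in blue, LLC-R in red and dashed lines at the means of all promoters of the same library. All 10 red points lie to the right of the red line for H3K27me3 and H3K36me3, while Mmp20 stands at 2 peaks of H3K4me3 in LLC-R.

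Among the gelatinases, the promoter of Mmp2 held 4 and 4 H3K4me3, 5 and 6 H3K9ac, 4 and 6 H3K27me3, and 4 and 6 H3K36me3 peaks. Its H3K4me3 level was low for its class, since CpG-rich promoters held 6.06 ± 1.35 peaks (SD, n = 11993 promoters) in the LLC-NR library, and the LLC-R library gave 5.60 ± 1.3. The promoter of Mmp9 at the TSS of the main rule held 4 and 5 H3K4me3, 6 and 5 H3K9ac, 5 and 6 H3K27me3, and 3 and 7 H3K36me3 peaks. At the first gene model it held 7 and 5 H3K4me3, 7 and 6 H3K9ac, 7 and 5 H3K27me3, and 4 and 6 H3K36me3 peaks. The direction between the lines was thus opposite at the 2 start sites for H3K4me3 and H3K27me3, and the same for H3K9ac and H3K36me3. With 7 H3K4me3 and 7 H3K27me3 peaks in LLC-NR, the start of the first gene model exceeded 75.5% of promoters for the former and 87.1% for the latter.

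Mmp14, a membrane-anchored enzyme that activates the Mmp2 precursor, carried the most peaks of the active marks among the 10 genes in LLC-NR, with Mmp9 taken at its main TSS. Its promoter held 7 and 6 H3K4me3, 8 and 7 H3K9ac, 5 and 6 H3K27me3, and 3 and 6 H3K36me3 peaks. In LLC-NR 0.201% of promoters held more H3K9ac peaks than Mmp14 and 5.50% held the same number. In LLC-R 1.86% held more and 12.0% the same number. Compared with Mmp2, the other CpG-rich promoter, Mmp14 held 3 more peaks of H3K9ac and of H3K4me3 in LLC-NR.

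Most of the 8 CpG-poor Mmp promoters stood above the mean of their own class for H3K4me3, and for H3K27me3 as well. In LLC-NR they held 4 to 6 H3K4me3 peaks, while the CpG-poor class held 3.28 ± 1.88 (SD, n = 6461 promoters). In LLC-R they held 2 to 6, against 3.19 ± 1.79, with Mmp20 the single gene below the class mean. For H3K27me3 they held 4 to 7 peaks in LLC-NR, against 4.29 ± 2.16, and 6 to 7 in LLC-R, against 5.18 ± 2.13. For H3K36me3 they ran from 2 peaks in Mmp12 to 7 in Mmp7 and Mmp10 in LLC-NR, against 3.38 ± 1.86, and from 5 to 7 in LLC-R, against 4.85 ± 2.06.

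The collagenases Mmp13 and Mmp8 differed from each other. Mmp13, which cuts fibrillar collagen in bone and cartilage, held 6 and 4 H3K4me3, 5 and 6 H3K9ac, 4 and 7 H3K27me3, and 4 and 5 H3K36me3 peaks. Mmp8, the collagenase stored in neutrophil granules, held 4 and 4 H3K4me3, 7 and 8 H3K9ac, 6 and 7 H3K27me3, and 6 and 6 H3K36me3 peaks. For Mmp8, 0.0447% of promoters held more H3K9ac peaks in LLC-R and 1.82% held the same number. For H3K4me3, 58.8% held more peaks and 16.2% the same number, so these marks did not go together at this gene. CpG-poor promoters as a class held 4.49 ± 2.07 H3K9ac peaks in LLC-R.

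The stromelysins Mmp3 and Mmp10, close relatives that cut proteoglycans and activate other Mmp precursors, also differed from each other. Mmp3 held 5 and 4 H3K4me3, 4 and 6 H3K9ac, 5 and 6 H3K27me3, and 4 and 6 H3K36me3 peaks. Mmp10 held 4 and 6 H3K4me3, 5 and 6 H3K9ac, 7 and 6 H3K27me3, and 7 and 6 H3K36me3 peaks. Mmp10 had more H3K4me3 and fewer H3K27me3 peaks in LLC-R, and Mmp3 had fewer H3K4me3 and more H3K27me3 peaks. Apart from the 2 H3K4me3 peaks gained by Mmp10, each of these differences was of 1 peak.

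The other 3 genes have narrower uses. Mmp12, the elastase of macrophages, held 5 and 5 H3K4me3, 5 and 4 H3K9ac, 5 and 6 H3K27me3, and 2 and 7 H3K36me3 peaks. Mmp20, an enzyme of enamel formation, held 5 and 2 H3K4me3, 6 and 6 H3K9ac, 6 and 6 H3K27me3, and 5 and 6 H3K36me3 peaks. Mmp7, the small matrilysin of epithelial glands, held 5 and 4 H3K4me3, 6 and 6 H3K9ac, 7 and 7 H3K27me3, and 7 and 6 H3K36me3 peaks. Mmp7 and Mmp10 shared the highest H3K36me3 number of the 10 genes in LLC-NR, 7, which 0.125% of promoters exceeded and 1.45% matched. In LLC-R the 10 genes lay between 5 and 7 H3K36me3 peaks, and in LLC-NR between 2 and 7. The LLC-R library held more H3K36me3 peaks in all.

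A difference of at least 2 peaks between the lines was taken as a call, and the share of all promoters called in the same libraries is its background. For H3K4me3, Mmp13 and Mmp20 were called fewer in LLC-R, 2 of 10 against 18.4% of all promoters, and Mmp10 was called more, 1 of 10 against 9.0%. With the TSS of the first gene model Mmp9 was also called fewer, which made 3 of 10 against 18.5%, beside 1 more against 8.95%. For H3K9ac, 0 were called fewer against 22.1%, and Mmp3 was called more, 1 of 10 against 5.40%. For H3K27me3, 0 were called fewer against 3.46%, and Mmp2 and Mmp13 were called more, 2 of 10 against 31.9%. With the first gene model Mmp9 was called fewer for H3K27me3, 1 of 10 against 3.45%. For H3K36me3, 0 were called fewer against 1.11%, and Mmp2, Mmp9, Mmp14, Mmp12 and Mmp3 were called more, 5 of 10 against 56.0%, and 5 of 10 against 56.5% with the first gene model. The counts for H3K4me3 and H3K36me3 were near these backgrounds, and with 1 library per line and mark no call has a replicate check. The totals of the libraries differed as well, and LLC-R had fewer peaks in all for H3K9ac (7853593 against 8547101) and more for H3K27me3 (9101721 against 7245090) and H3K36me3 (8747519 against 6432447). The uniquely mapped reads that the study lists differ in the same directions for these 3 marks. Line and read depth thus cannot be told apart in numbers of peaks gained or lost. When promoter numbers were divided by all peaks of the library and called at 1.5-fold, 2 genes were called fewer for H3K36me3 against 5.78% of all promoters and 2 more against 23.3%, and for H3K27me3 0 were called more against 10.8%. When they were divided by the uniquely mapped reads that the study lists, 8 genes were called more for H3K9ac against 59.8% of all promoters, 8 fewer for H3K27me3 against 73.1%, and 7 fewer for H3K36me3 against 49.6%. The direction of the calls thus rests on the scale for H3K27me3 and H3K36me3. For H3K9ac 0 genes were called fewer on each of these scales. The shares of all promoters were 22.1% unscaled, 6.80% after division by all peaks and 1.15% after division by reads. Shares of 6.80% and 1.15% leave little room for a call among 10 genes, so these zeros say little. The values that follow are numbers of peaks as deposited.

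The gap between the Mmp genes and all promoters was widest for H3K9ac, where the mean difference was 0.3 peaks over the 10 genes and -0.543 over all promoters. In this pair of libraries 50.6% of all promoters held fewer H3K9ac peaks than in LLC-NR and 19.2% held more. Among the Mmp genes 3 held fewer (Mmp9, Mmp14 and Mmp12), 2 the same number (Mmp20 and Mmp7) and 5 more (Mmp2, Mmp13, Mmp3, Mmp10 and Mmp8). The median difference was 0.5 peaks over the 10 genes and -1 peak over all promoters. For H3K27me3 the medians were 1 and 1, for H3K36me3 1.5 and 2, and for H3K4me3 -0.5 and 0. These medians describe 10 chosen genes, 7 of them neighbours, and carry no test.

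**Figure D2:**
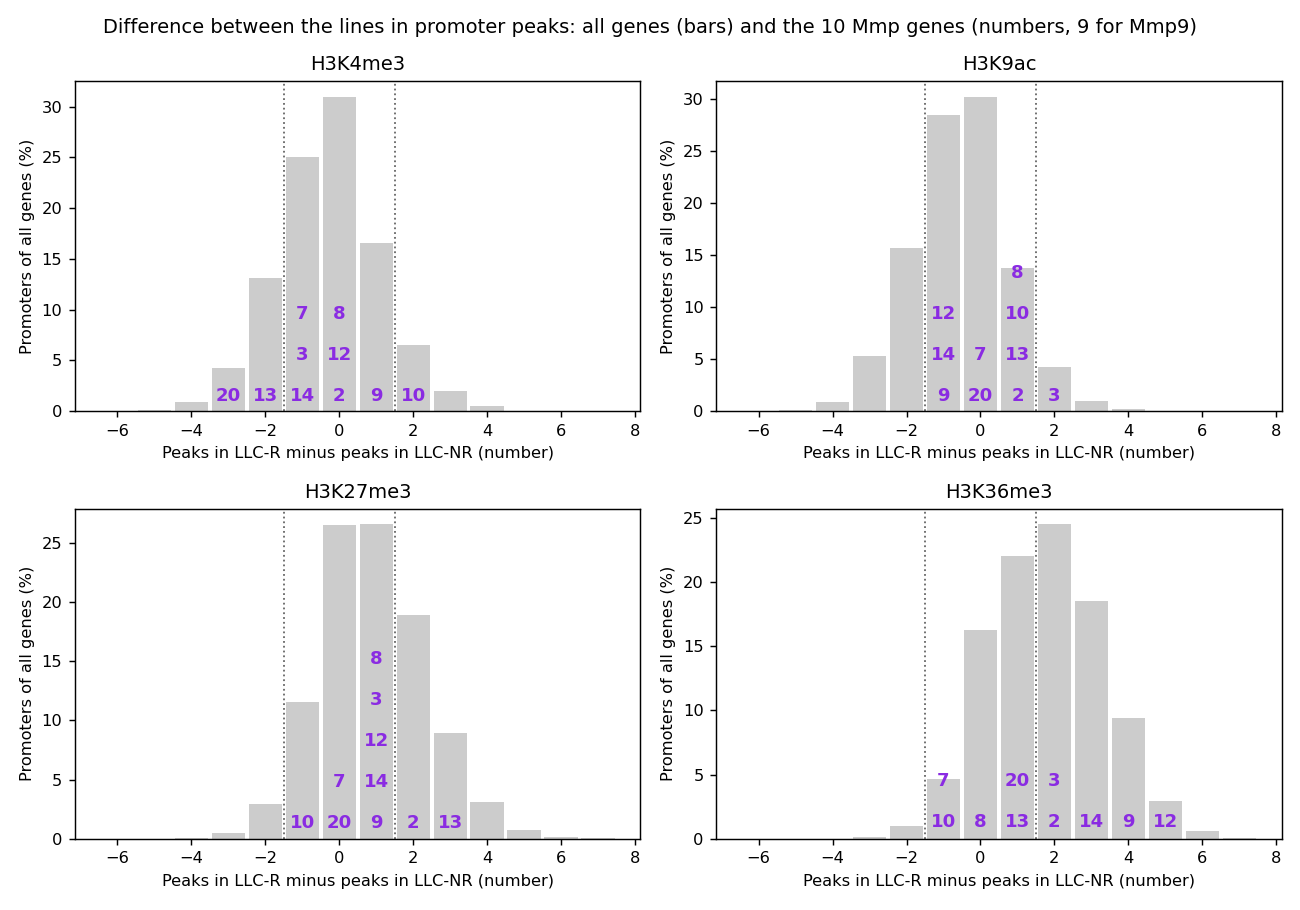
Grey bars give the share of all 22367 promoters (y axis, percent) at each difference in number of peaks, LLC-R minus LLC-NR (x axis), for the 4 marks, and bold numbers stand for the Mmp genes (13 for Mmp13) at their own difference, stacked without regard to the y axis, with dotted lines that part differences of 2 or more peaks. The bars of H3K36me3 lie to the right of 0 with most Mmp genes among them, and the bars of H3K9ac lie to the left, with 5 Mmp genes to the right of 0.

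Differences of 3 or more peaks were present in 5 cases, at Mmp12, Mmp9, Mmp14, Mmp13 and Mmp20. Mmp12 gained 5 H3K36me3 peaks at its main TSS, a difference reached or passed by 3.63% of promoters. At its first gene model, 32 bp away, it gained 4, as 13.3% of promoters did. Mmp9 gained 4 H3K36me3 peaks at its main TSS, as 13.0% of promoters did, and 2 at the first gene model, and Mmp14 gained 3, as 31.6% did. Mmp20 was the gene with a loss of this size. It lost 3 H3K4me3 peaks, and 5.24% of promoters lost as many or more. Mmp13 gained 3 H3K27me3 peaks, which 13.0% of promoters did, while it lost 2 H3K4me3 peaks. The gain of 2 H3K9ac peaks at Mmp3 was reached by 5.40% of promoters. None of these exceeds what many other promoters showed between the same 2 libraries.

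The positions of the peaks bear on how these numbers arise. At the first gene model of Mmp9, the LLC-NR H3K4me3 library had peaks with midpoints at -136, 42 and 189 bp from the TSS, and the LLC-R library had 1 peak at 110 bp over this stretch, so the difference lay close to the start site. In Mmp14 the H3K9ac peaks kept their places, and 6 of the 8 LLC-NR peaks had an LLC-R peak within 20 bp. In Mmp9 this was so for 0 of 7 H3K9ac peaks. Over the 10 genes, 36.5% of H3K4me3, 43.1% of H3K9ac, 35.7% of H3K27me3 and 37.0% of H3K36me3 peaks of LLC-NR had a partner within 20 bp in LLC-R. Over all promoters the shares were 37.8%, 40.4%, 35.2% and 33.7%, and an even spread of peaks would give 12.6% to 14.9%.

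**Figure D3:**
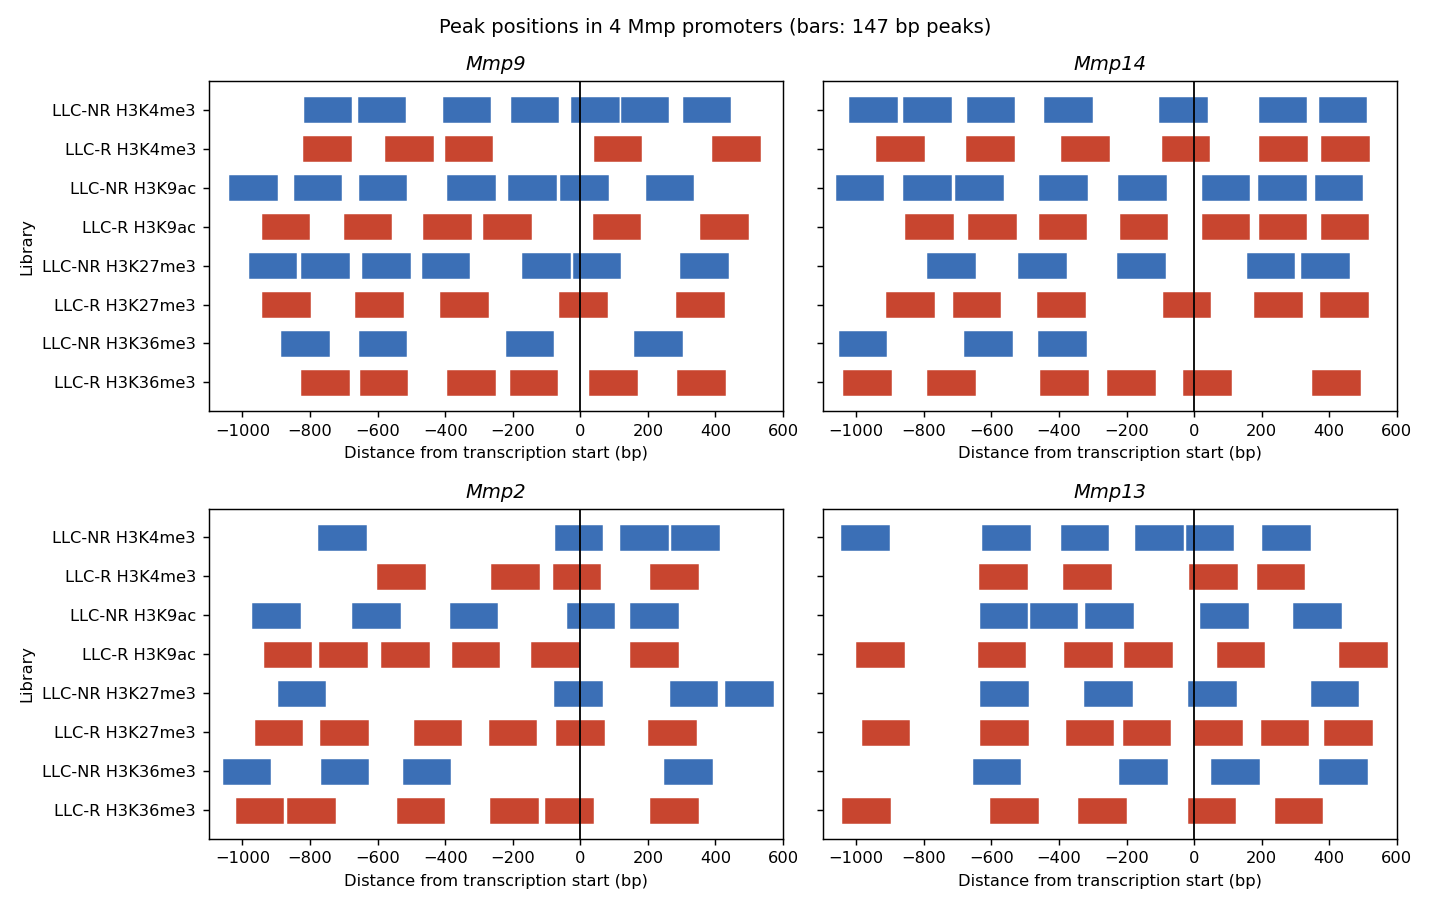
Peaks in the promoters of Mmp9, Mmp14, Mmp2 and Mmp13 by distance from the TSS of the first gene model (x axis, bp) in the 8 libraries (rows), each bar being 1 peak drawn at its width, with LLC-NR in blue and LLC-R in red. In Mmp14 most H3K9ac bars of LLC-R lie under a bar of LLC-NR, and in Mmp9 they are shifted.

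The study used a primer pair at Mmp9 for ChIP-qPCR, which places its assay among the peaks. The forward primer aggatgaagcttctgcttgc and the reverse primer cttggggaaggaaagatgag, both written 5′ to 3′, each matched the genome once and bounded an interval of 72 bp at chr2:164773090-164773161. It lies at -629 to -558 bp from the TSS of the first gene model and 6810 bp downstream of the TSS used for the main count. It overlaps 0 exons and lies inside the span of the transcript Mmp9-003, in an intron. In every one of the 8 libraries exactly 1 peak overlapped it. The peak covered all 72 bp in 7 libraries and 24 bp in the H3K4me3 library of LLC-R, where its midpoint lay 86 bp from the centre of the interval. The other 7 midpoints lay from -36 to 19 bp from the centre. The number of peaks at the primer site was thus the same for each mark and line, the position differed most for H3K4me3, and peak height was not analysed here.

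Promoters were also sorted into active, bivalent, repressive and unmarked ones, a mark being counted as present from the mean of all promoters of its library upward. Where H3K4me3 or H3K9ac reaches its mean, the state is active without H3K27me3 at its own mean and bivalent with it, and H3K27me3 alone makes the state repressive. The study's methods ask for H3K4me3 or H3K9ac at 2 times the mean of normalized tag counts, a level that no promoter reached in numbers of peaks, so the states here are not the states of the study. In LLC-NR 7 of the 10 genes were bivalent, against 48.3% of all promoters, Mmp13 was active, Mmp10 was repressive and Mmp2 had none of the marks above the mean. In LLC-R all 10 were bivalent, against 52.9% of all promoters. With the first gene model Mmp9 was active there and the other 9 bivalent. At the main TSS 4 of the 10 genes reached the H3K4me3 mean of LLC-R and 9 its H3K9ac mean, while 6 and 5 did so in LLC-NR. In LLC-R Mmp2, Mmp13, Mmp3, Mmp8, Mmp20 and Mmp7 lay below the H3K4me3 mean, and H3K9ac alone made them bivalent rather than repressive. The threshold moved too, since 5 H3K9ac peaks fell short of the LLC-NR mean of 5.51 but passed the LLC-R mean of 4.96. Mmp13 went from active to bivalent through its rise from 4 to 7 H3K27me3 peaks. Mmp10 left the repressive state with 6 H3K4me3 and 6 H3K9ac peaks in LLC-R. Mmp2 left the state without marks with 6 H3K9ac and 6 H3K27me3 peaks. In LLC-NR 4 rather than 7 genes were bivalent with a promoter of 2 kb before and 1 kb after the TSS, against 39.2% of all promoters. Counting overlaps also gave 4, against 48.4%, so the excess over all promoters was not kept in LLC-NR. In LLC-R 8 genes were bivalent with the wide promoter, against 44.8%, and 8 with overlaps, against 56.8%.

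Over gene bodies the Mmp genes, like lists of cell type markers, were rich in H3K27me3 in LLC-NR. The median body density of the 10 genes was 3.78 H3K27me3 peaks per kb in LLC-NR, where the median of all genes was 2.71, and 4.27 in LLC-R, where it was 3.80. Marker lists had LLC-NR medians of 3.97 for neutrophils, 3.68 for leukocytes, 3.65 for fibroblasts and 3.62 for endothelium. They were 3.41 for lung epithelium and 1.66 for constitutive genes, so the trait was not particular to the Mmp genes. In LLC-NR 9 of the 10 genes lay above the median of all genes, and in LLC-R 7 did. Mmp7 had 4.14 peaks per kb in LLC-NR, above 93.3% of genes, and 3.86 in LLC-R, above 54.8%. Mmp9 had 4.12 and 4.46, above 92.6% and 94.6% of genes, and Mmp20, the longest body, had 3.98 and 4.28, above 87.8% and 85.7%. Mmp14 was the gene below the median in LLC-NR, with 2.51 peaks per kb, above 42.1% of genes, and it had 3.60 in LLC-R, above 33.4%.

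The other marks lay near the middle of all genes. H3K36me3 medians of the 10 bodies were 3.0 and 3.82 peaks per kb, and those of all genes were 3.13 and 3.99. Mmp14 and Mmp8 had the densest H3K36me3 bodies in LLC-R, with 4.37 and 4.39 peaks per kb, above 88.0% and 89.8% of genes. Mmp3 and Mmp10 had the thinnest in LLC-NR, with 2.18 and 2.17 peaks per kb, above 16.0% and 15.8% of genes. For H3K4me3, Mmp14 had 3.39 and 3.50 peaks per kb, above 82.9% and 89.4% of genes. Mmp9 had 3.57 and 3.23, above 88.0% and 80.2%. Along the gene, H3K36me3 was spread evenly in most members, with 42.6% (Mmp12) to 56.7% (Mmp14) of the peaks past the middle of the body in LLC-NR, where the median gene had 50.8%, and 44.4% (Mmp10) to 55.6% (Mmp7) in LLC-R, where it had 50.2%. The main Mmp9 body begins 0.5 kb after the upstream TSS and so includes the start of the first gene model.

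**Figure D4:**
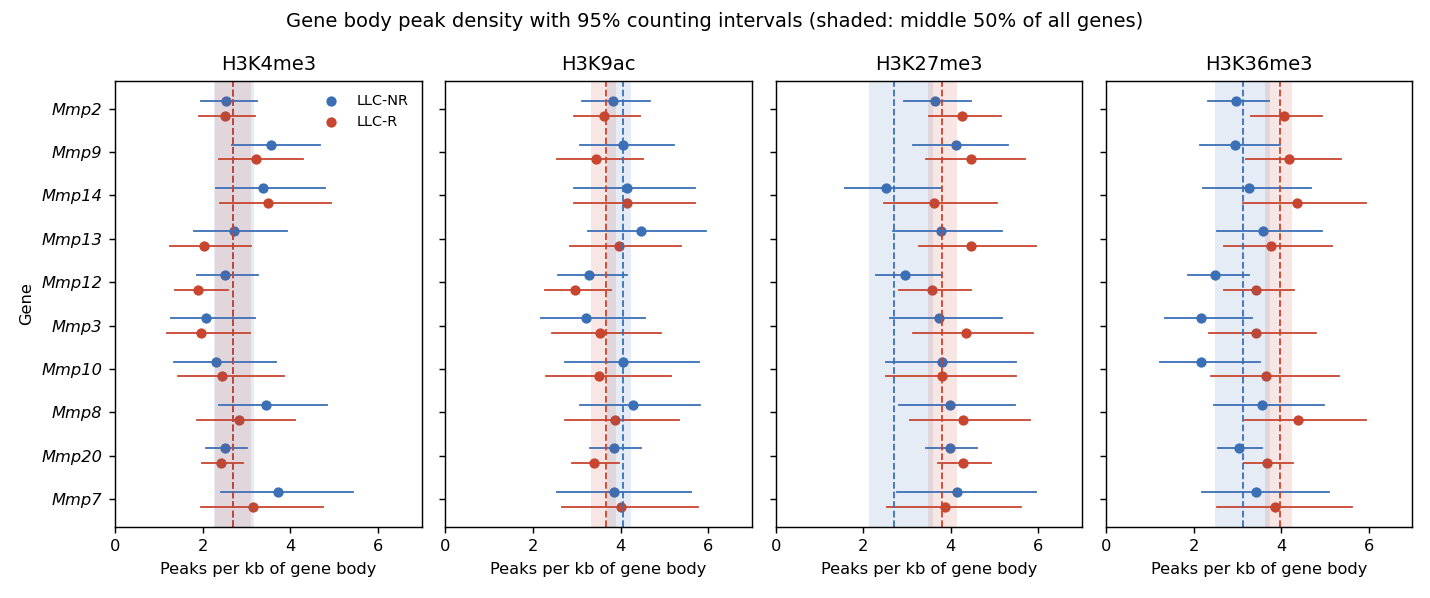
Peaks per kb of gene body (x axis) for each of the 10 Mmp genes and mark, LLC-NR in blue and LLC-R in red, with 95% Poisson intervals as lines, shaded bands over the middle 50% of all genes of the library and dashed lines at their medians. For H3K27me3 most blue points lie to the right of the blue band, and the red points lie nearer to the red band.

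For a comparison of the lines, body densities were divided by all peaks of the library and called at a log2 difference of 0.32. For H3K27me3, Mmp7 and Mmp10 were called lower in LLC-R, 2 of 10 against 7.35% of genes, and 0 were called higher against 29.0%. The log2 ratio of LLC-R to LLC-NR was -0.43 for Mmp7 (95% Poisson interval -1.19 to 0.32) and -0.33 for Mmp10 (-1.08 to 0.43). It was below 0 for 9 of the 10 genes, Mmp14 being the exception at 0.19. Ratios below 0 were also common among all genes, and 36.9% lay below Mmp12, the highest of these 9 at -0.06. The median was -0.16 over the 10 genes and 0.09 over all genes. For H3K4me3, Mmp12 and Mmp13 were called lower, 2 of 10 against 8.31%, with log2 ratios of -0.39 (-0.98 to 0.19) and -0.41 (-1.23 to 0.41), and 0 were called higher against 7.97%. For H3K36me3, Mmp13 was called lower at -0.37 (-1.02 to 0.28), 1 of 10 against 21.1%, and 0 were called higher against 10.8%. For H3K9ac, 0 were called in either direction, against 3.84% lower and 2.73% higher. For every one of the 10 genes and 4 marks the Poisson interval of the log2 ratio included 0, which decides nothing for the reason given above. The bodies of Mmp12 and Mmp1b overlap, so peaks in the overlap belong to both.

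The 7 neighbours were also read as 1 region. The cluster spans chr9:7272514-7699585, 427 kb with 10 Mmp genes, from the first base of Mmp13 to the last of Mmp7. It held 854 and 755 H3K4me3, 1274 and 1167 H3K9ac, 1209 and 1429 H3K27me3, and 930 and 1256 H3K36me3 peaks. Per kb these were 0.830 and 0.761 of the chromosome 9 mean for H3K4me3, 0.825 and 0.832 for H3K9ac, 0.911 and 0.894 for H3K27me3, and 0.794 and 0.819 for H3K36me3. All 8 ratios had 95% Poisson intervals below 1, with the limit given above for such intervals. The cluster was also ranked by number of peaks among 5874 windows of its length in the genome. For the LLC-R libraries of H3K36me3 and H3K4me3, 9.23% and 9.58% of these windows held fewer peaks than the cluster. For the remaining libraries the share lay between 22.5% and 43.2%, so the cluster was not extreme among such windows. Relative to all peaks of the library, the cluster had a log2 ratio of LLC-R to LLC-NR of -0.17 for H3K4me3, and 6.78% of 5874 windows of this length in the genome had a lower one. The ratios of the other marks were -0.0045 for H3K9ac, -0.09 for H3K27me3 and -0.01 for H3K36me3, near the middle of the windows.

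Repeated sequence moved with the low density. Since the authors kept uniquely mapped reads, the share of words of 32 bases that occur more than once in the genome was counted along the cluster, an addition made after the profile had been seen. In 10-kb windows this share averaged 29.0% over the 42 windows of the cluster and 12.9% over 603 windows spread along chromosome 9. The 9 cluster windows with a share of at least 50% held a mean of 8.67 and 7.33 H3K4me3 peaks, and the barest, 130 kb from the start of the cluster, held 2 and 1. The share at the 10 Mmp promoters was low, between 0% and 2.52% for 9 of them, but 17.4% for Mmp13. In the bodies it was highest in Mmp12, Mmp3 and Mmp10, with 15.1%, 14.6% and 12.1%.

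Windows with a share of repeated words under 10% were also compared. The 11 such windows of the cluster held 38.5 ± 2.88 H3K27me3 peaks (SD over windows) in LLC-NR, between 33 and 43, while 389 such windows of chromosome 9 held 33.9 ± 7.21. The 7 such windows in the 100 kb on each side, where Dync2h1, Dcun1d5 and Tmem123 lie, held 27.6 ± 5.86, between 21 and 35. The cluster mean lay within 1 SD of the chromosome mean. The side windows nearest to the cluster, 40 kb and 20 kb before its start, held 35 and 35, and those from 490 kb on held 24, 26 and 22, so there was no step at the ends of the cluster. In LLC-R the means were 42.4 in the cluster, 40.6 on chromosome 9 and 38.6 on the sides. H3K36me3 ran the other way, with 29.9 ± 3.27 peaks in the cluster and 36.1 ± 4.95 on the sides in LLC-NR, while LLC-R gave 37.3 and 42.3, and chromosome 9 held 30.4 in LLC-NR and 39.2 in LLC-R. H3K4me3 means in these cluster windows were 26.3 and 23.5, against 26.4 and 25.5 on chromosome 9 and 29.4 and 29.4 on the sides. H3K9ac means were 39.1 and 36.1, against 39.8 and 36.4 on chromosome 9 and 42 and 38.4 on the sides. Windows of 1 region are not replicates, and these values carry no test.

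**Figure D5:**
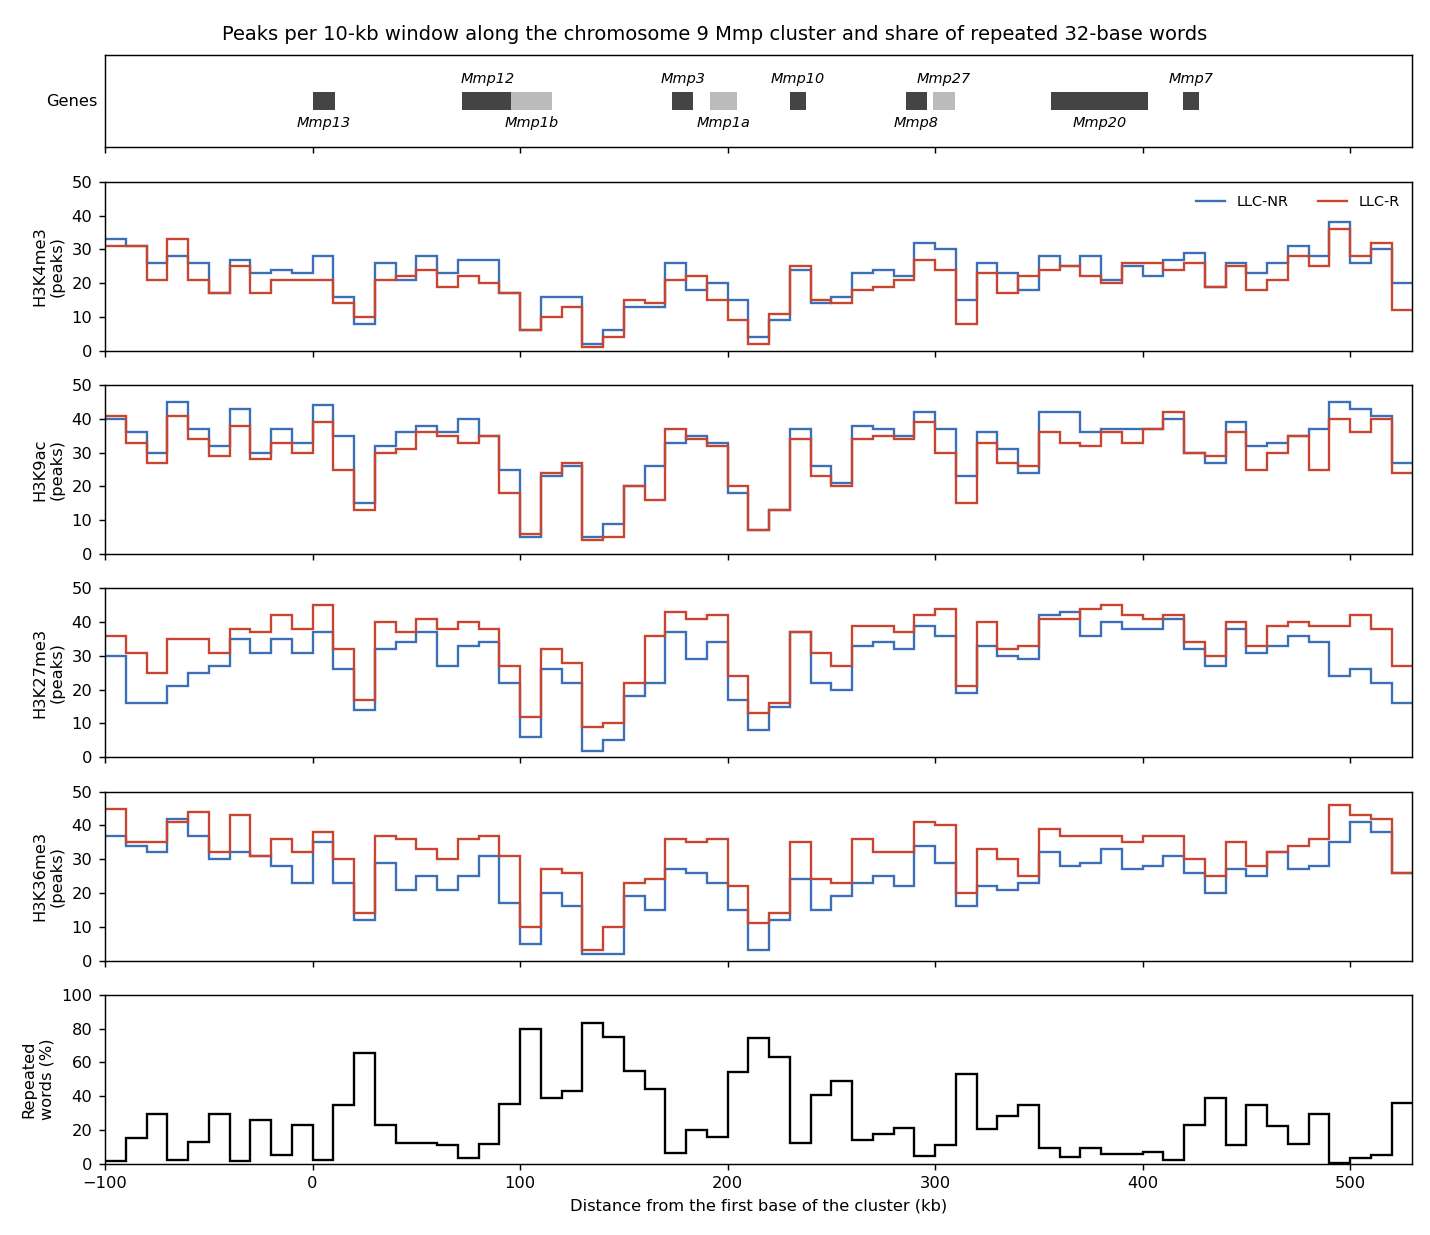
Peaks per 10-kb window (y axes) along the chromosome 9 cluster and 100 kb on each side, by distance from the first base of the cluster (x axis, kb), 1 panel per mark with LLC-NR in blue and LLC-R in red, dark boxes for the 7 examined genes, grey boxes for Mmp1b, Mmp1a and Mmp27, and a lowest panel with the share of repeated 32-base words. Peaks of every mark drop where the share of repeated words rises, and the blue H3K27me3 line falls to 24 peaks at 490 kb, past the end of the cluster.

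The regions around the genes differed between the lines as well. Over 500 kb on each side, without the gene and its promoter, the log2 ratio of H3K4me3 peaks was -0.10 to -0.13 for the 7 genes of chromosome 9, 0.13 for Mmp2, 0.08 for Mmp9 and -0.09 for Mmp14. For H3K36me3 it was -0.10 to -0.17 around the genes of chromosome 9, 0.19 around Mmp2, -0.01 around Mmp9 and 0.05 around Mmp14. For the 7 genes of chromosome 9 these surroundings hold most of the cluster itself, so they give no separate value for it. Copy number was not measured here.

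Genes that work with the Mmp enzymes were counted by the same rule for calls, in lists of other metalloproteinases, inhibitors, activators with receptors, and transcription factors. Their counts are to be read against the shares of all promoters given above, which for calls of fewer peaks were 18.4% (H3K4me3) and 22.1% (H3K9ac) and for calls of more peaks 31.9% (H3K27me3) and 56.0% (H3K36me3). Of 13 other metalloproteinases, 3 were called fewer for H3K4me3 (Mmp1b from 5 to 2 peaks, Mmp28 from 7 to 4, and Mmp24 from 8 to 6) and 1 more (Mmp16, from 0 to 3). For H3K9ac 4 were called fewer, with Mmp17 from 5 to 2, and Mmp16, a membrane-anchored enzyme like Mmp14, was called more, from 1 to 5. For H3K27me3 their promoters held a mean of 6 and 6.92 peaks, and 4 were called more (Mmp16, Mmp1a, Mmp27 and Mmp28) and 0 fewer. For H3K36me3 9 of 13 were called more against 56.0%, and Mmp15 fewer, from 7 to 5.

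Of the 6 inhibitors, the alpha-2-macroglobulin gene A2m was called fewer for H3K4me3, from 4 to 2. For H3K9ac A2m, Timp1 and Timp2 were called fewer and Timp3, which binds to the matrix, more, from 5 to 7. Reck, a membrane-bound inhibitor, fell from 8 to 6 H3K27me3 peaks and from 5 to 3 H3K36me3 peaks, and A2m and Timp2 were called more for both of these marks. Of the 10 activators and receptors, 3 were called fewer for H3K4me3 (Bsg, the inducer of Mmp expression called CD147, from 7 to 4, Furin and Itgb3) and 4 of 10 for H3K9ac against 22.1%, with 0 called more for either. For H3K27me3 5 of 10 were called more against 31.9%, among them Plau, the urokinase gene, from 2 to 5 and Furin, a protease that activates pro-Mmp14, from 3 to 6. For H3K36me3 8 of 10 were called more against 56.0%, with Cd44, the hyaluronan receptor, from 1 to 7.

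Of the 12 genes of AP-1, ETS and NF-kappaB factors, whose motifs are the ones searched above, Fosl1 was called fewer for H3K4me3, from 7 to 5, and Ets1, Fosl1 and Jun were called fewer for H3K9ac. For H3K27me3 3 were called more (Ets1, Fos and Jund) and for H3K36me3 7 of 12 were against 56.0%, with Ets2 from 1 to 5. Names beyond the 3 largest differences per mark and direction are given because the counts were small, and they were chosen after their values were seen.

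By Euclidean distance over 8 numbers of promoter peaks and 8 body densities, each divided by its SD over genes, the genes most like Mmp9 at its main TSS were Inha at 1.27, Gipc2 at 1.39 and Igsf10 at 1.43. The median distance of all genes from Mmp9 was 3.61. None of the 3 lies on the chromosome of Mmp9 or among the metalloproteinases.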

How the data were processed

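Peaks were examined in 8 libraries, 1 for each line (LLC-NR, LLC-R) and mark (H3K4me3, H3K9ac, H3K27me3, H3K36me3), grouped by the labels. The authors aligned reads to mm9 with Bowtie 0.12.7, kept unique matches and used GeneTrack on every library to call peaks, with settings that are not given in the sources used here. The deposited values are peak positions, all of 1 width, with no score or read count, so the depth behind a peak is unknown. Midpoints were counted in promoters (1.5 kb, of which 1 kb lies before the TSS) and in gene bodies of at least 1 kb, starting 0.5 kb after the TSS, of GENCODE vM1 protein-coding genes. The TSS was that of the largest number of transcripts, with ties settled upstream. Calls were a difference of 2 peaks for promoters and a log2 difference of 0.32, after division by all peaks of the library, for bodies. CpG-rich, intermediate and poor promoters were set by G+C content (55%) and the CpG observed-to-expected ratio (0.60 and 0.40) in 500-bp intervals. Without replicates no test between lines was made. Intervals are 95% Poisson intervals. The counting was tested on simulated peaks. All 10 Mmp genes are named, and for the pathway lists at most the 3 largest differences per mark and direction, plus those named as chosen afterwards. The members and lists were chosen with earlier results of these data known. Alternatives were other promoter windows, peak overlap, other call sizes, other scales, other TSS rules and bodies from the TSS. Promoter sequences are from NCBIM37. Counting used NumPy 2.4.6 and pandas 2.3.3 under Python 3.11.15, intervals SciPy 1.17.1, and plots Matplotlib 3.10.9.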

Additional observations from a re-analysis of the deposited data

How the results depend on the processing

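No paired analysis was possible because each line and mark had 1 library and the labels give no shared replicate numbers, and for the same reason no replicate could be left out. Of 200 values recomputed under alternatives, 61 moved. The 40 ratios of mean promoter peaks to all promoters stayed within the Poisson intervals of the main values. Those intervals were wide, for example 0.738 to 1.32 for H3K4me3 in LLC-NR. The alternatives recounted overlapping stretches of the same genes, so this says little. The causes of the moves were not tested. Shares in parentheses are those of all promoters or genes called alike. With calls at 1 or more peaks, members with fewer peaks in LLC-R numbered 5 (43.5%) for H3K4me3, 3 (50.6%) for H3K9ac, 1 (15%) for H3K27me3 and 2 (5.78%) for H3K36me3, and those with more 2 (25.6%), 5 (19.2%) and 7 (58.5%) for H3K4me3, H3K9ac and H3K27me3. A promoter from 0.5 kb upstream to 0.5 kb downstream gave 1 fewer (11.1%) for H3K4me3 and 1 more (19.4%) for H3K27me3. One from 2 kb upstream to 1 kb downstream gave 2 more (14.4%) for H3K4me3, 1 fewer (39.7%) for H3K9ac, and 1 fewer (3.49%) and 5 more (55.1%) for H3K27me3. Counting overlaps gave 0 more (9.67%) for H3K4me3, 2 more (5.46%) for H3K9ac and 1 fewer (1.06%) for H3K36me3. The most upstream TSS gave 1 fewer (22%) for H3K9ac, and the TSS of the first gene model, chosen after seeing the data, gave 1 fewer (3.45%) for H3K27me3. At 1.5-fold after division by all peaks, and likewise by the peaks of windows away from genes, there was 1 fewer (10.4%) and 0 more (7.29%) for H3K4me3, 0 more (10.8%) for H3K27me3, and 2 fewer (5.78%) and 2 more (23.3%) for H3K36me3. After division by uniquely mapped reads there was 1 fewer (5.60%) for H3K4me3, 8 more (59.8%) for H3K9ac, 8 fewer (73.1%) and 0 more (1.98%) for H3K27me3, and 7 fewer (49.6%) and 0 more (6.55%) for H3K36me3. Body calls at 1.5-fold were 0 lower for H3K4me3 (2.56%), H3K27me3 (0.879%) and H3K36me3 (0.843%). Bodies from the TSS gave 1 higher (3.47%) for H3K9ac and 2 lower (19.3%) for H3K36me3. Bodies divided by reads gave 0 lower (2.56%) and 1 higher (37.2%) for H3K4me3, 10 higher (96.7%) for H3K9ac, 10 lower (81.9%) for H3K27me3 and 10 lower (92.9%) for H3K36me3. Against all chromosomes in place of chromosome 9, the cluster ratio was 0.90 for H3K4me3, 0.892 for H3K9ac, 0.999 for H3K27me3 and 0.865 for H3K36me3 in LLC-NR, and 0.889 for H3K9ac in LLC-R. With the wide promoter LLC-NR had 2 active (32.8%), 4 bivalent (39.2%), 4 repressive (11.3%) and 0 unmarked (16.7%) members and LLC-R had 1 active (29.8%) and 1 repressive (8.89%). With overlaps LLC-NR had 4 bivalent (48.4%), 5 repressive (15.9%) and 0 unmarked (14.2%) members and LLC-R had 2 repressive (14.5%). The most upstream TSS gave 1 repressive member (5.82%) in LLC-R, and the first gene model 1 active (28.7%). Numbers of peaks without heights limit what a promoter can show, and without replicates the spread between tumors is unknown.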
